A study of Rattus norvegicus with 8 samples.

Results

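The 10 genes of the signature of disease-associated microglia were measured in the basolateral amygdala of the rat, in the days after status epilepticus: Trem2, Tyrobp, Lpl, Cst7, Spp1, Gpnmb, Itgax, Axl, Clec7a and Lgals3. Their probe sets were taken where the array's annotation gave a single gene symbol, which yielded 11 of 31042 probe sets, 2 for Trem2 and 1 for each other gene, and 10 of 14217 named genes. Of the 10 genes 8 had a probe set bright enough to be tested, and Cst7 and Itgax did not. The 8 arrays formed 4 groups of 2, named A and B, and an array carried the pooled and amplified RNA of 2 rats, from 4 per group. Epileptogenic rats had status epilepticus induced by electrical stimulation of the amygdala and showed no spontaneous seizures during the study, while control rats were operated but not stimulated. On day 8 after the stimulation every rat, after 5 habituation sessions, was trained in 2 trials with a footshock of 1.5 mA lasting 1 s and a tone of 75 dB lasting 20 s. In the paired groups the tone ended with the shock, and in the unpaired groups the shock came before the tone. The lateral and basal nuclei were cut out by laser 3 h later, on the side of the electrode. Rat strain, sex and age are not given in the sources used here.

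Disease-associated microglia were described in mice, where microglia around plaques and in degenerating tissue switch on a shared set of genes for lipid handling, lysosomes and phagocytosis. Trem2 is a surface receptor for lipids and lipoproteins that has no signalling tail of its own and passes its signal through the adaptor Tyrobp, also called DAP12, to the kinase Syk. In mice, part of the set depends on this receptor. The signature was not defined in rats or in epilepsy, and several of its genes are also made by other cells, Lpl by neurons among them. In the rat build GRCr8 Axl, Tyrobp and Itgax lie on chromosome 1, Cst7 on 3, Gpnmb and Clec7a on 4, Trem2 on 9, Spp1 on 14, Lgals3 on 15 and Lpl on 16, all as protein-coding genes.

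The start-proximal DNA of the called genes is shown because members that move together can be read against it. RefSeq promoters of the rat build GRCr8 matched 7 of the 10 genes, all but Tyrobp, Lpl and Lgals3. The 250 bases before the annotated start follow for 4 genes that rose, each written 5′ to 3′ on the gene's strand, with the matches to the motifs below in capitals. The start is that of RefSeq's promoter table, which lies inside the gene's longest annotated span for 6 of the 7 genes, by 18 to 891 bases for Trem2, Cst7, Clec7a, Axl and Spp1 and by 9960 bases for Itgax, and at its first base for Gpnmb.
Trem2 (chr9:20151780-20152029, minus strand): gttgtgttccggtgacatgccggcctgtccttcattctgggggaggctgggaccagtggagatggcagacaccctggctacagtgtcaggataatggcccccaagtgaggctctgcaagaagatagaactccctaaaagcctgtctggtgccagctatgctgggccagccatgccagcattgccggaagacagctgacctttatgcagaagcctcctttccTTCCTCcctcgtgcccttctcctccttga
Gpnmb (chr4:79340878-79341127, plus strand): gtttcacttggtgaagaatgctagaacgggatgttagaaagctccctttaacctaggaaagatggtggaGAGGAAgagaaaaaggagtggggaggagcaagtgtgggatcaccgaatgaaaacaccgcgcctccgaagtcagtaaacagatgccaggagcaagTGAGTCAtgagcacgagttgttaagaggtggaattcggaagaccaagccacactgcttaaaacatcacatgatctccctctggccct
Axl (chr1:90424010-90424259, minus strand): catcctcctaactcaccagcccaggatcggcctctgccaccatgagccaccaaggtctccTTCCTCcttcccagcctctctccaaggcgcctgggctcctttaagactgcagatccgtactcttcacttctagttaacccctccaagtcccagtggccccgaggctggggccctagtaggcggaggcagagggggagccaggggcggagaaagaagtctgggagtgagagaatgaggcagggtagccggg
Clec7a (chr4:164599828-164600077, minus strand): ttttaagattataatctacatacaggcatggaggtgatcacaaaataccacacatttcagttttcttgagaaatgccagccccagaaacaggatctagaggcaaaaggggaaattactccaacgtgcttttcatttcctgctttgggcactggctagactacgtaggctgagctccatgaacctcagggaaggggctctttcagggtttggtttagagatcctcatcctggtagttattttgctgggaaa
Each window was searched on both strands for GAGGAA (the core bound by PU.1, the myeloid master factor), TGANTCA (AP-1), CACGTG (an E-box of the MiT/TFE lysosomal factors) and TTGCNNAA (C/EBP), none of which overlapped another in these windows. The PU.1 core stood in 3 of the 7 member windows, those of Trem2 (bases -29 to -24 from the start, minus strand), Gpnmb (-181 to -176, plus strand) and Axl (-190 to -185, minus strand), and in 23.3% of all 33469 promoters. The AP-1 letters stood in 2 of the 7, Gpnmb (-87 to -81) and Itgax (-56 to -50), and in 6.34% of all promoters. The E-box and the C/EBP letters were in 0 of the 7 windows and in 5.59% and 9.22% of all promoters. Other sequences that these factors may bind were not searched. The Clec7a window held none of the 4 motifs. These matches describe letters and show no binding.

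Signals are the deposited MAS5 intensities, and the median per array lay between 29.0 and 43.2 units. Tests were made on log2 signals, and the filter on dim probe sets kept those with a mean log2 signal above 4.35, a signal of 20.3. Of the listed genes of the basolateral amygdala 8 of the 9 with a probe set passed this filter. So did 10364 of all 14217 named genes, so that passing it cannot check the tissue label. The control mean log2 signal was 10.20 for Lmo3 and 5.43 for Slc17a7, while Tbr1 lay below the filter. Microglial RNA was measurable in control rats too, with a control mean log2 signal of 7.88 for P2ry12 and 7.73 for Fcer1g.

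After status epilepticus 6 of the 8 tested members rose, at an adjusted p under 0.05, and 0 fell: Clec7a, Axl, Lgals3, Trem2, Gpnmb and Tyrobp. Over all 18625 tested probe sets 2.81% were called higher and 0.827% lower in this comparison of 4 epileptogenic with 4 control arrays, 523 and 154 probe sets. With each array centred on its median these were 377 and 12, and the median difference over all probe sets moved from -0.11 to -0.01. The 8 tested members had a median log2 difference of 1.83. All 4 epileptogenic arrays lay above all 4 control arrays in the same 6 genes, a separation seen in 7.29% of tested probe sets. Each tested member's control mean also lay above the filter level, so that none passed the filter through the epileptogenic arrays alone. For Trem2 and Clec7a it lay only just above, at 4.58 and 4.56, and their control paired means of 4.25 and 3.76 lay under it. On control unpaired A Trem2 stood at 5.88, and on the other control arrays between 3.94 and 4.45. In pooled tissue, more microglia and more RNA per microglial cell cannot be told apart.

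**Figure D1:**
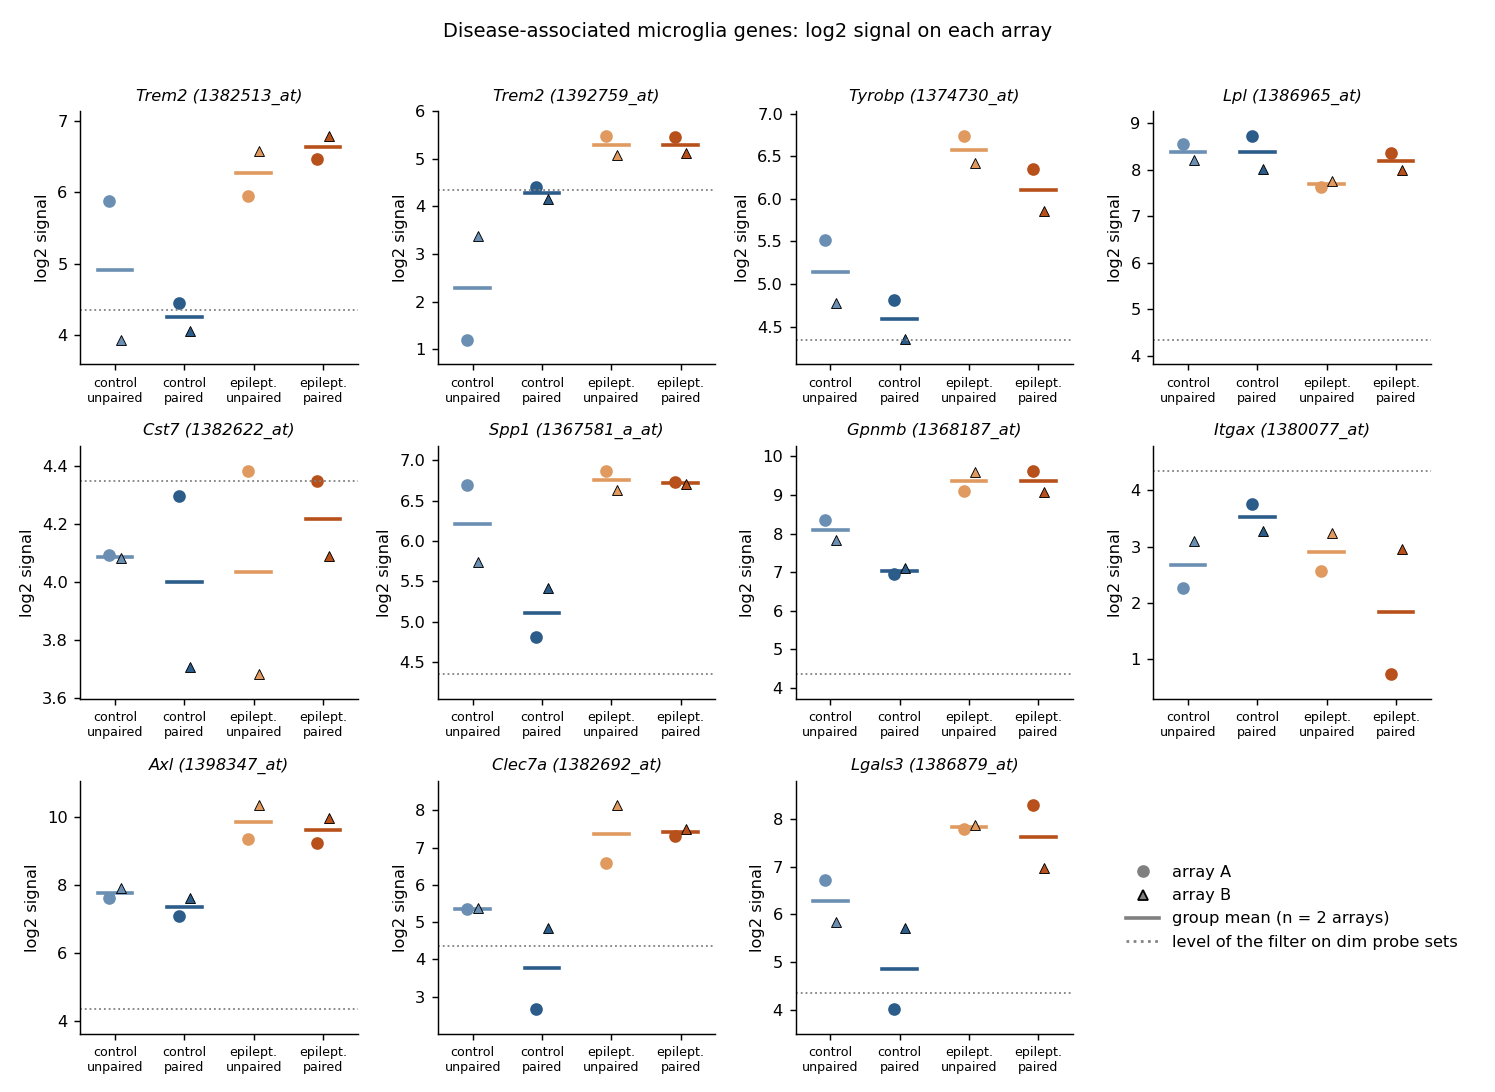
Log2 signal (vertical axes) of the 11 probe sets of the 10 genes in the 4 groups, with array A as a circle, array B as a triangle, the group mean as a bar and the filter level of 4.35 as a dotted line. Trem2, Tyrobp, Gpnmb, Axl, Clec7a and Lgals3 are higher on every epileptogenic than on every control array, while Lpl, Spp1, Cst7 and Itgax overlap.

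Among the receptors, Trem2 was read by 2 probe sets. The brighter one (1382513_at) gave signals of 59.0 and 15.3 on control unpaired A and B, 21.8 and 16.7 on control paired A and B, 61.5 and 95.8 on epileptogenic unpaired A and B, and 88.5 and 111 on epileptogenic paired A and B. Control unpaired A thus lay close under the lowest epileptogenic array, and the other 3 control arrays lay far lower. The log2 difference was 1.86 ± 0.43 (SE; 4 against 4 arrays), a 3.64-fold increase with an adjusted p of 0.0472, just inside the threshold. Since the control paired mean of 4.25 lay under the filter level, this size rests in part on a dim signal. The dimmer one (1392759_at) was also higher on every epileptogenic than on every control array, and it was not tested, since its mean of 4.29 lay under the filter. Its signals were 2.31 and 10.4 on control unpaired, 21.4 and 17.8 on control paired, 44.9 and 34.0 on epileptogenic unpaired and 43.9 and 34.7 on epileptogenic paired arrays, A before B. On control unpaired A the 2 probe sets disagreed: it was the highest control array by the brighter and the lowest by the dimmer one. With no filter the dimmer probe set had a log2 difference of 2.00 and an adjusted p of 0.123, and the brighter one then had 0.0622. With the mean of both probe sets Trem2 differed by 1.93, and the adjusted p was 0.0129.

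Tyrobp (probe set 1374730_at), the adaptor that carries the signal of Trem2 and of other myeloid receptors, had signals of 45.8 and 27.4 on control unpaired, 28.2 and 20.5 on control paired, 107 and 85.4 on epileptogenic unpaired and 81.8 and 57.9 on epileptogenic paired arrays (A before B). The groups did not overlap. It rose by 1.47 ± 0.30 (log2, SE; 2.78-fold; adjusted p = 0.0297), the smallest increase among the 6 called members.

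Clec7a (probe set 1382692_at), which encodes dectin-1, a lectin receptor that also signals through Syk, had the largest difference of the 8 tested members. Its signals were 41.0 and 41.5 on control unpaired, 6.32 and 28.9 on control paired, 96.9 and 281 on epileptogenic unpaired and 159 and 182 on epileptogenic paired arrays. Control paired A stood far below the other control arrays. The log2 difference was 2.83 ± 0.49 (SE; 7.10-fold; adjusted p = 0.0172). Since the control paired mean lay under the filter level, this size rests in part on a dim signal, and it was 2.28 without control paired A.

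Axl (probe set 1398347_at), a receptor tyrosine kinase of the TAM family that recognises dying cells through the bridging ligand Gas6, was the brightest called member. Its signals were 197 and 242 on control unpaired, 138 and 197 on control paired, 664 and 1309.95 on epileptogenic unpaired and 613 and 1022 on epileptogenic paired arrays. Every epileptogenic array was more than 2-fold above the highest control array. Axl rose by 2.18 ± 0.28 (log2, SE; 4.53-fold; adjusted p = 0.00445). Array B was the higher of the pair in all 4 groups, and with the replicate letter as a block the SE was 0.15 (adjusted p = 6.0e-05).

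Itgax (probe set 1380077_at), the integrin chain CD11c, lay far under the filter. Its signals lay between 1.66 and 13.5 over the 8 arrays, at a mean log2 signal of 2.74, and the groups overlapped. With no filter its log2 difference was -0.73 with an adjusted p of 0.750. Its partner chain Itgb2 was well measured and rose by 2.15 ± 0.25 (log2, SE; adjusted p = 0.00353).

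Gpnmb and Lgals3 rose as well. Gpnmb (probe set 1368187_at), a glycoprotein of lysosome-related vesicles in macrophages, had signals of 328 and 229.6 on control unpaired, 123 and 137 on control paired, 549 and 778 on epileptogenic unpaired and 794 and 536 on epileptogenic paired arrays. The control unpaired arrays lay between the control paired and the epileptogenic ones, with no overlap. Gpnmb rose by 1.79 ± 0.23 (log2, SE; 3.46-fold; adjusted p = 0.00430). Lgals3 (probe set 1386879_at), which encodes the galactoside-binding lectin galectin-3, had signals of 106 and 57.5 on control unpaired, 16.1 and 52.5 on control paired, 219.961 and 233 on epileptogenic unpaired and 311 and 125 on epileptogenic paired arrays. The epileptogenic minimum of 125 stood close above the control maximum of 106. It rose by 2.15 ± 0.43 (log2, SE; 4.44-fold; adjusted p = 0.0283), and the difference was 1.72 without control paired A, where its signal was lowest.

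Spp1 (probe set 1367581_a_at), which encodes the secreted integrin ligand osteopontin, did not pass. Its signals were 103 and 53.4 on control unpaired, 28.0 and 42.8 on control paired, 117 and 99.0 on epileptogenic unpaired and 106 and 104 on epileptogenic paired arrays. The 4 epileptogenic arrays were nearly equal (log2 SD 0.10, n = 4) and the control arrays were spread (SD 0.79, n = 4), with control unpaired A above the lowest epileptogenic array. The log2 difference was 1.07 ± 0.28 (SE; 2.10-fold; adjusted p = 0.0764), and with the replicate block it was called (adjusted p = 0.0205).

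Lpl (probe set 1386965_at), the lipoprotein lipase that frees fatty acids from lipoproteins, had a value below 0 and was not called. Its signals were 376 and 295 on control unpaired, 424 and 258 on control paired, 198 and 215 on epileptogenic unpaired and 329 and 253 on epileptogenic paired arrays. The highest values were on control arrays, and the groups overlapped. The log2 difference was -0.44 ± 0.23 (SE; adjusted p = 0.338), with a 95% interval from -0.95 to 0.06, so that an increase as large as that of any called member lies outside it. Markers of neurons, which also express Lpl, had a median log2 difference of -0.61 (12 tested). Their part in the Lpl value was not tested.

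Cst7 (probe set 1382622_at), which encodes cystatin F, an inhibitor of lysosomal cysteine proteases, lay under the filter. Its signals ran from 12.8 to 20.9 over all 8 arrays, with means of 4.13 ± 0.32 in epileptogenic and 4.05 ± 0.25 in control arrays (log2, SD, n = 4). With no filter the difference was 0.08 (adjusted p = 0.971). Of 5 tested proteases that cystatin F acts on 3 rose. These were Lgmn by 1.60 ± 0.18, Ctsh by 1.63 ± 0.22 and Ctsc by 1.98 ± 0.32 (log2, SE; adjusted p = 0.00309, 0.00538 and 0.0124). A second Ctsc probe set showed 2.14 ± 0.54 and was not called (adjusted p = 0.0653).

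The size of the differences was also read within each training. After paired training Gpnmb rose by 2.33 ± 0.32 (log2, SE; adjusted p = 0.0240) and Axl by 2.26 ± 0.39 (adjusted p = 0.0469), which made 2 of 8 tested members against 0.521% of tested probe sets called higher. After unpaired training 0 of 8 were called in limma, against 0.29% of tested probe sets called higher. At an unadjusted p under 0.05 the count was 5 of 8 members and 2328 of the 18625 probe sets. Both comparisons rest on 2 against 2 arrays. After paired training the count was 0 without control paired A, epileptogenic paired A or epileptogenic paired B, and 1 without control unpaired A, control unpaired B or control paired B. With the replicate block 7 of 8 were called after paired and 4 of 8 after unpaired training, against 3.45% and 3.4% of probe sets. The median log2 difference of the tested members was 2.30 after paired and 1.39 after unpaired training. This difference between the trainings was not called for any member: the interaction passed for 0 of 8 members and 0% of tested probe sets (adjusted p = 0.9998 for each member). At an unadjusted p under 0.05 the count was 1 of 8 members and 274 of 18625 probe sets. That member was Gpnmb, with a log2 value of 1.08 ± 0.45 (SE). With the replicate block 0 of 8 passed the adjusted threshold, while the unadjusted limma p was 0.0181 for Gpnmb and 0.0407 for Clec7a.

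**Figure D2:**
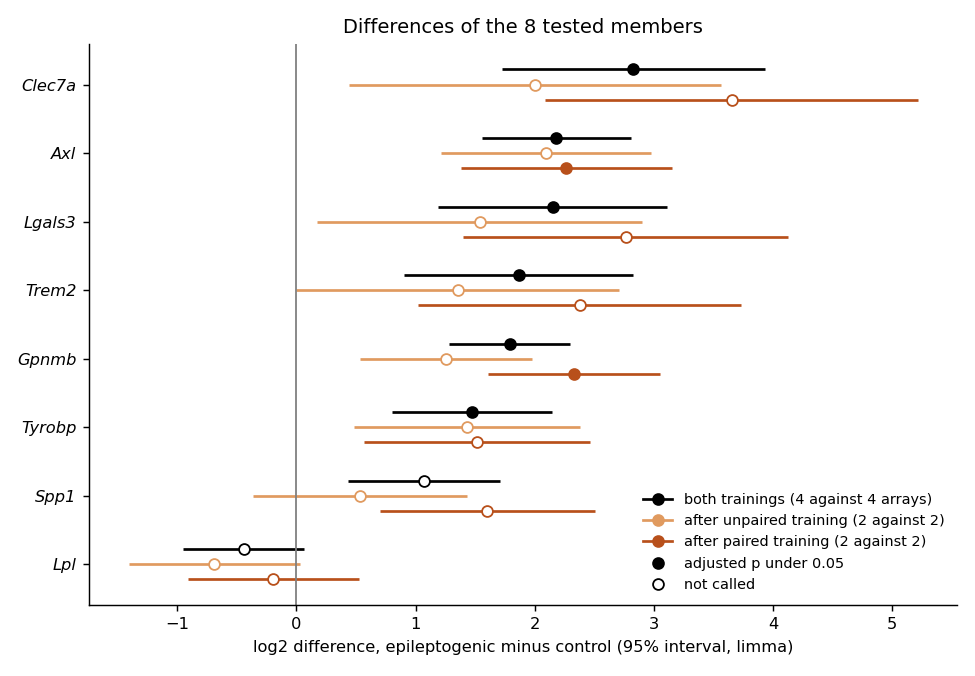
Log2 difference between epileptogenic and control arrays (horizontal axis, with 95% intervals) of the 8 tested members over both trainings and within each, where filled points passed an adjusted p of 0.05. Clec7a has the largest difference at 2.83 and Lpl the lowest at -0.44, and the intervals of the 2 trainings overlap in every gene.

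No member was called for training itself. Paired minus unpaired was called for 0 of 8 tested members and 0% of probe sets in limma over all rats, in control rats and in epileptogenic rats, with or without the replicate block. At an unadjusted p under 0.05 the counts were 1 of 8 over all rats, 4 of 8 in controls and 0 of 8 in epileptogenic rats, against 214, 313 and 228 of the 18625 probe sets. In control rats all 8 log2 differences were below 0, with a median of -0.87 against -0.06 over all probe sets, and in epileptogenic rats the median was -0.02. The lowest control value stood on control paired A for Spp1, Gpnmb, Axl, Clec7a and Lgals3. The mean log2 signal of 11 pan-myeloid genes was also lowest there, at 5.48 against 6.17 to 6.44 on the other control arrays, and at 5.96 against 6.21 to 6.58 without Cd68.

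How firmly each call held differed between the genes. Gpnmb and Axl were called with any 1 of the 8 arrays left out, which 0.977% of tested probe sets were, with adjusted p between 0.00932 and 0.0233 for Gpnmb and between 0.00730 and 0.0231 for Axl. Clec7a was called in 5 of these 8 fits and not without epileptogenic unpaired B (adjusted p = 0.0727), epileptogenic paired A or epileptogenic paired B. Lgals3 was called in 3, those without control unpaired A, control paired B or epileptogenic paired B, and reached 0.101 without epileptogenic unpaired B. Trem2 and Tyrobp were called in 1, the fit without control unpaired A (adjusted p = 0.0134 and 0.0403), with 0.166 as the highest adjusted p for Trem2 and 0.114 for Tyrobp. The number of called members was 6 without control unpaired A, 4 without control paired B, 3 without control unpaired B, control paired A, epileptogenic unpaired A or epileptogenic paired B, and 2 without epileptogenic unpaired B or epileptogenic paired A. Leaving out any 1 array also lowered the number called higher over all 18625 tested probe sets, from 523 to between 200 and 368. The lower member counts are therefore not particular to these genes. Within letter A alone 1 member was called (Axl) and within letter B alone 7, against 453 and 830 of the 18625 probe sets called higher. Trem2 differed by 1.04 between the letter A arrays and by 2.69 between the letter B arrays, and Lgals3 by 2.66 and 1.64. With the replicate block 7 of 8 were called, all but Lpl, against 7.58% of probe sets called higher.

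**Figure D3:**
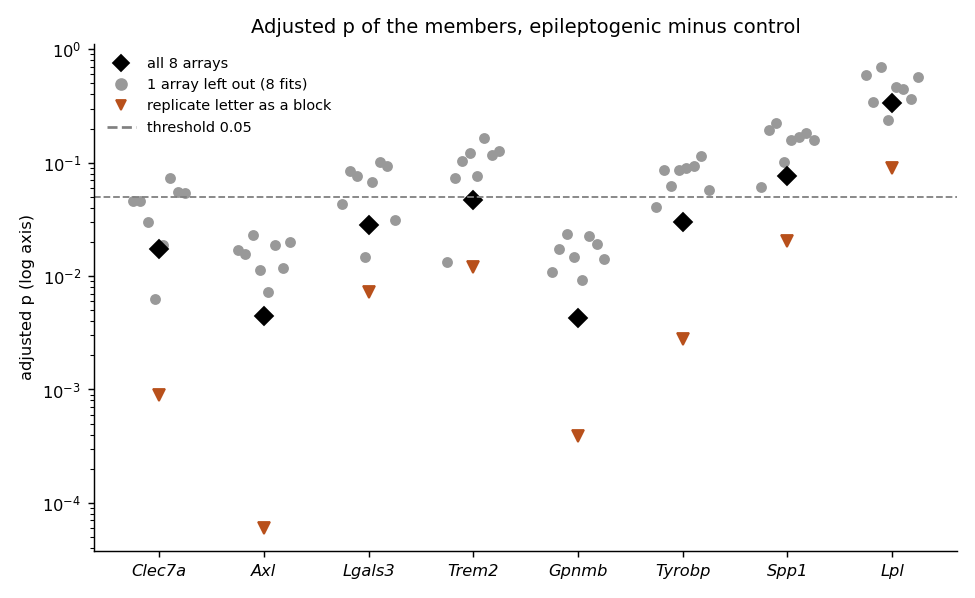
Adjusted p (log axis) of the epileptogenic against control difference for the 8 tested members, with all 8 arrays (diamonds), with 1 array left out (grey points, 8 fits) and with the replicate letter as a block (triangles). All 8 grey points of Axl and Gpnmb lie under the dashed threshold of 0.05, and those of Trem2 and Tyrobp lie on both sides, with 1 of 8 under it.

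The members were then set against other genes of phagocytes. Of 11 tested pan-myeloid genes, all 11 rose, with a median log2 difference of 2.41, among them the adaptor Fcer1g by 2.33 ± 0.19 (log2, SE; adjusted p = 0.00208), the lysosomal membrane gene Laptm5 by 2.67 ± 0.19 (adjusted p = 0.000950) and the calcium-binding Aif1 by 2.72 ± 0.41 (adjusted p = 0.00893). Aif1 also had a dimmer probe set, at -0.51 ± 0.36 (adjusted p = 0.498). A second Laptm5 probe set rose less, by 1.52 ± 0.24 (adjusted p = 0.0123). Among the 11, the lysosomal glycoprotein gene Cd68, had a control mean of 4.12, under the filter level, and was tested through its epileptogenic mean of 8.11 alone. The count of 11 was 7 without epileptogenic unpaired B or epileptogenic paired A. Of 8 tested genes of homeostatic microglia, some of which fall in the mouse signature, 6 rose here (median 1.65). Among them were the receptor P2ry12 by 1.75 ± 0.19 (adjusted p = 0.00241) and Fcrl2 by 3.58 ± 0.38 (adjusted p = 0.00237). A second P2ry12 probe set showed 1.70 ± 0.44 (adjusted p = 0.0736). Cx3cr1, the fractalkine receptor, showed -0.40 ± 0.58 and was not called (adjusted p = 0.763).

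Each member's log2 signal was also read minus the mean of the 11 pan-myeloid genes on the same array, a measure chosen after the data were seen. The pan-myeloid mean itself ran from 8.42 to 8.96 on epileptogenic and from 5.48 to 6.44 on control arrays. A gene that rose less than this mean therefore has a lower value on this scale. Lpl, whose own log2 difference of -0.44 was not called, is such a case. On this scale 7 of 8 members had a lower value in epileptogenic than in control arrays, and Clec7a a higher one (0.33). Over all tested probe sets only 39.8% had a log2 difference above 0, so most are lower on this scale by its construction. The share of all tested genes that are lower on it was not computed, so the count and p-values here cannot set the members apart. Clec7a, Axl, Lgals3 and Trem2 differed by between -0.63 and 0.33, with overlapping groups. Spp1 differed by -1.42 and Lpl by -2.94, and in both all 4 epileptogenic arrays lay below all 4 control arrays (exact permutation p = 0.0286, two-sided, the smallest that 4 against 4 arrays allow). Adjusted over the 8 members these became 0.114, so 0 of 8 passed (2 of 8 at an unadjusted p under 0.05). Gpnmb and Tyrobp differed by -0.70 and -1.02 (exact permutation p = 0.0571 for each). This permutation does not use the array letters. In the 4 pairs of arrays of 1 letter and 1 training, the epileptogenic value was lower in 4 of 4 for Tyrobp (-1.40 to -0.62), Gpnmb (-1.67 to -0.14), Spp1 and Lpl. With Cd68 left out of the mean, Spp1 and Lpl differed by -1.28 and -2.79 (exact permutation p = 0.0286 for each, 0.114 adjusted), Tyrobp by -0.87 and Gpnmb by -0.56 (exact permutation p = 0.0857 and 0.200). A ratio within an array shows unequal change only.

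**Figure D4:**
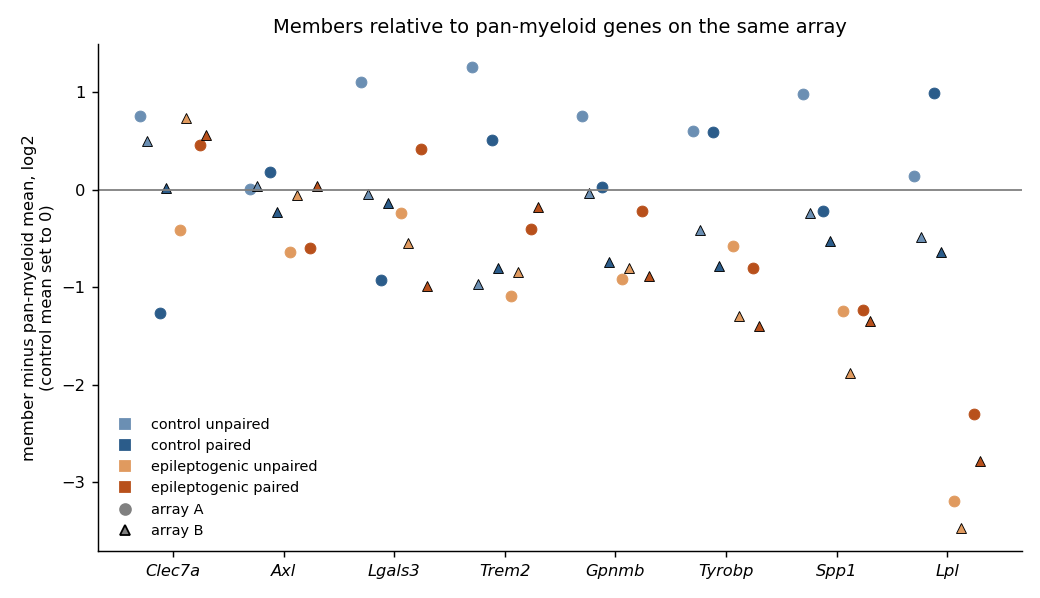
Log2 signal of each tested member minus the mean of 11 pan-myeloid genes on the same array (vertical axis), with the control mean of each gene set to 0, for the 8 arrays. Clec7a, Axl, Lgals3 and Trem2 overlap between epileptogenic and control arrays, while the 4 epileptogenic arrays of Spp1 and of Lpl lie below all control arrays.

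Other genes of the signature were described by counts. Of 26 further genes 25 had a probe set and 21 were tested, and 11 rose and 0 fell, with a median of 1.21 (15 with the replicate block, and 6 without epileptogenic unpaired B and 7 without control unpaired B, epileptogenic paired A or the intensity trend). The 21 include Cd68, Ccl3 and Ccl4, whose control means lay under the filter level, and Cd68 is among the 11. Cathepsin D (Ctsd), a lysosomal aspartic protease, rose by 2.15 ± 0.20 (log2, SE; adjusted p = 0.00213). Cathepsin Z (Ctsz) rose by 2.43 ± 0.26, the tetraspanin Cd9 by 2.04 ± 0.26 and B2m, the light chain of MHC class I, by 1.58 ± 0.16. These 4 were called with any array left out. Cd52, Ccl6, Lilrb4 and Lgals1 were too dim to test.

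Downstream of Trem2 and Tyrobp, 3 of 10 tested signalling genes rose and 0 fell (median 1.08; 6 with the replicate block, 0 without epileptogenic unpaired B, and 1 without control unpaired B, control paired B, epileptogenic paired A or epileptogenic paired B). These were Ptpn6, which encodes the phosphatase SHP-1, by 2.27 ± 0.38, the lipid phosphatase gene Inpp5d by 1.38 ± 0.24 and the small GTPase gene Rac2 by 1.63 ± 0.30 (log2, SE; adjusted p = 0.0157, 0.0174 and 0.0205). The first 2 encode inhibitors of such signalling. The control mean of Ptpn6 lay at the filter level, at 4.35. Among ligands, sheddases and relatives of Trem2, 2 of 5 tested genes rose: Clu, a lipoprotein component that binds Trem2 and is made mainly by astrocytes, by 1.44 ± 0.18 (adjusted p = 0.00419), and Ms4a6a, by 2.22 ± 0.49 (adjusted p = 0.0424, called in 1 of the 8 fits with an array left out). The control mean of Ms4a6a was 3.69, under the filter level, so it was tested through its epileptogenic mean of 5.91 alone. The count was 1 in 7 of these fits and 2 without control paired B, and 1 with median centring, no filter, no intensity trend or averaged probe sets. A second Clu probe set showed 1.57 ± 0.49 and was not called (adjusted p = 0.126).

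Of 15 tested partners and receptors of the member proteins 6 rose and 0 fell (median 1.14; 9 and 1 with the replicate block, 2 without epileptogenic unpaired B and 3 without epileptogenic paired A or B). Mertk, a TAM receptor beside Axl, rose by 1.71 ± 0.24 (log2, SE; adjusted p = 0.00610) and Cd44, a receptor of osteopontin and hyaluronan, by 2.98 ± 0.52 (adjusted p = 0.0171), and the integrin chain Itgb3 rose by 2.58 ± 0.45 (adjusted p = 0.0178). The control means of Cd44 and Itgb3 lay under the filter level. A second Cd44 probe set showed 1.11 ± 0.40 and was not called (adjusted p = 0.179). Of 10 tested transcription factors 3 rose and 0 fell (median 0.86, 6 with the block): Irf8 by 2.15 ± 0.30, Runx1 by 1.67 ± 0.24 and Cebpa by 1.98 ± 0.44 (adjusted p = 0.00665, 0.00762 and 0.0439). All 3 have roles in myeloid development. Runx1 had a second probe set at 0.76 ± 0.39 (adjusted p = 0.344). Cebpa had 3 more, of which 2 were called (2.40 and 2.46) and 1 was not (1.03 ± 0.37, adjusted p = 0.171). With averaged probe sets 1 transcription factor was called. Spi1, which encodes PU.1, had no probe set with a single symbol.

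**Figure D5:**
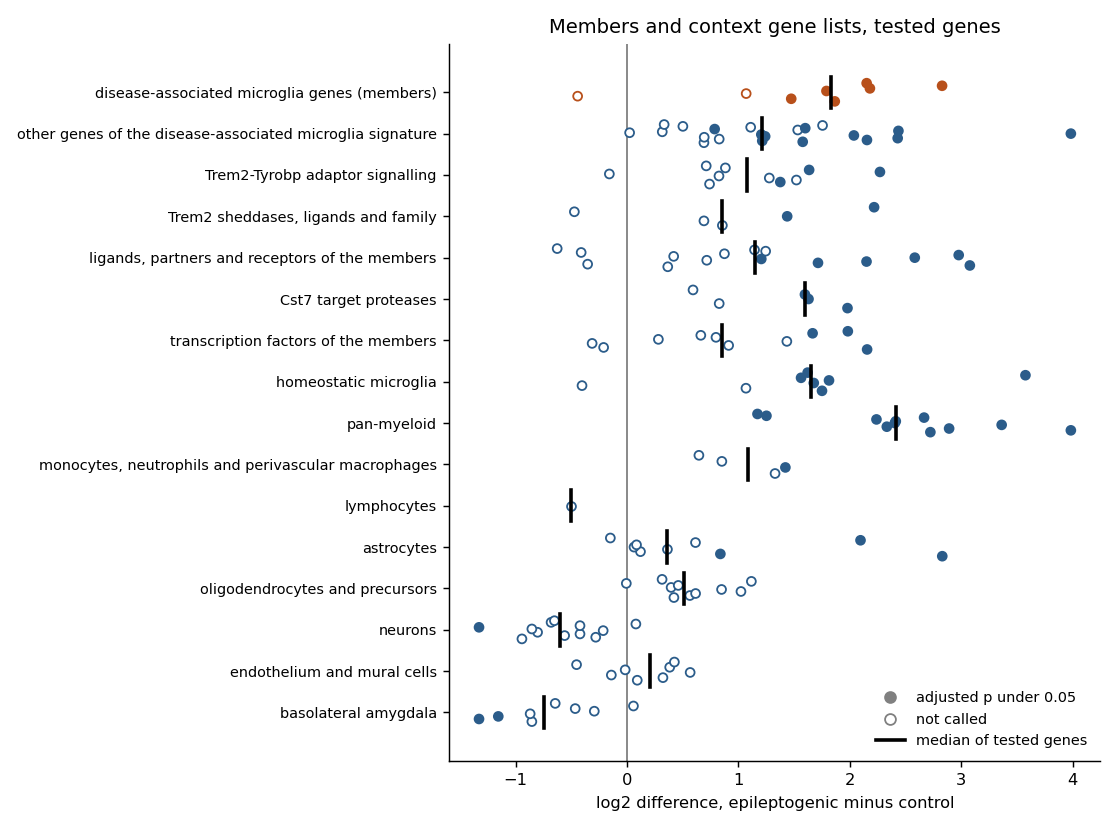
Log2 difference between epileptogenic and control arrays (horizontal axis) of each tested gene in the members and in 15 context lists, with filled points at an adjusted p under 0.05 and a bar at the list median. The members' median of 1.83 lies between those of the homeostatic microglia (1.65) and pan-myeloid lists (2.41), and the neuronal median is -0.61.

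Markers of other cell types were counted in the same way, and their part in the members' values was not tested. Of 12 genes of monocytes, neutrophils and perivascular macrophages with a probe set 4 were tested and 1 rose, Mrc1, a receptor of perivascular macrophages, by 1.42 ± 0.25 (log2, SE; adjusted p = 0.0184, called in 3 of the 8 fits with an array left out). The count was 0 in 5 of these fits and without the intensity trend, and 2 without epileptogenic unpaired A. Plac8 showed 1.33 ± 0.35 and was not called (adjusted p = 0.0732). The summed signal of these 12 genes ran from 879 to 1415 in epileptogenic and from 406 to 696 in control arrays. Much of it was Mrc1, which alone ran from 430 to 773 and from 170 to 382. Ccr2, S100a8, S100a9, Ly6c, Cd14, Cd163, F13a1 and Ms4a7 lay under the filter. Of 13 lymphocyte genes 1 was tested, Lck at -0.51 ± 0.39 (adjusted p = 0.536), and their summed signal was 116 to 181 in epileptogenic and 168 to 272 in control arrays. Astrocytes showed 3 of 9 tested genes higher (median 0.36), Gfap by 2.83 ± 0.29 and Vim by 2.10 ± 0.32 (adjusted p = 0.00237 and 0.0100). The summed astrocyte signal overlapped, at 21235 to 26981 in epileptogenic and 14471 to 24921 in control arrays.

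Of 10 tested genes of oligodendrocytes and their precursors 0 were called in limma (4 with the replicate block; Mobp 1.02 ± 0.26, adjusted p = 0.0663; Cspg4 1.12 ± 0.35, adjusted p = 0.125). Of 8 endothelial and mural genes 0 were called with or without the block (Tek 0.57 ± 0.24, adjusted p = 0.247; Rgs5 0.38 ± 0.29, adjusted p = 0.538). Of 12 neuronal genes 1 fell, Neurod6, a transcription factor gene of excitatory neurons, with -1.33 ± 0.29 (log2, SE; adjusted p = 0.0407), and 6 did with the block, against 8.65% of probe sets called lower there. Stmn2 showed -0.65 ± 0.16 (adjusted p = 0.0641). Of 8 basolateral amygdala genes Neurod6 and Lmo3, at -1.16 ± 0.23 (adjusted p = 0.0283), fell. With an array left out, Neurod6 was called in 1 and Lmo3 in 2 of the 8 fits, and with median centring or no intensity trend neither was called. A second Lmo3 probe set showed -0.91 ± 0.22 (adjusted p = 0.0594).

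The genes most like each member across the 8 arrays were found among 10356 other tested genes, as those with the smallest root-mean-square difference of log2 signals after each gene was centred on its own mean. For Trem2 they were Rassf4 (0.28), Ptpn6 (0.31) and Arhgdib (0.32). For Tyrobp they were Plin2 (0.16), Il17ra (0.19) and S1pr3 (0.20). Axl was closest to Rab32 (0.14), Mpeg1 (0.21) and Parp9 (0.22), and Gpnmb to Casp4 (0.23), Mrc1 (0.24) and Fcgr1a (0.25). Clec7a was closest to Cd86 (0.35), Ifi27l2b (0.36) and Pros1 (0.39), and Lgals3 to Vim (0.34), Mt2A (0.38) and Ccdc81 (0.40). Spp1 was nearest to Flvcr1 (0.17), Gng11 (0.21) and Tbx19 (0.22), and Lpl to Smap2 (0.09), Dapk1 (0.11) and Zfp120 (0.12). All these values describe 8 arrays that share 4 groups and carry no test.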

How the data were processed

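Signal intensities on a linear scale were deposited for 8 Affymetrix arrays. Per the submitters' processing notes the authors produced them in MAS5; its version and its scaling are not given in the sources used here. Signals were transformed to log2 without further normalization, and 57 control probe sets were left out. Probe sets were named through the platform annotation (20826 with a single symbol, 436 with several, 9780 with none), and of several probe sets the brightest on average stood for the gene. The 18625 probe sets above the 40th percentile of mean log2 signal were tested with limma 3.58.1 (R 4.3.3): 4 group means, 7 comparisons, eBayes with trend, two-sided p-values, and Benjamini-Hochberg adjustment across these probe sets at 0.05. The fit was run on simulated data with noise drawn independently for each array, which cannot check the p-values where arrays are correlated, as below. The series' design text calls the 2 arrays of a group biological replicates, and p-values measure the spread between such pools. For arrays that share a letter, deviations from the group means had correlations of 0.321 to 0.407 over the 6 group pairs, so the letter was also entered as a replicate block. The number of arrays limits the precision. Named genes are all members, up to 4 called genes per list by smallest p (2 for lists of other cell types, or where none was called), Gfap, Aif1, Cx3cr1 and P2ry12. The members and lists were chosen with earlier results of these data known. Figures used matplotlib 3.10.9.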

Additional observations from a re-analysis of the deposited data

How the results depend on the processing

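The 8 member differences between epileptogenic and control arrays kept their sign under quantile normalization, median centring, an offset of 16, no filter or a filter at the 60th percentile, no intensity trend, the replicate block, either letter alone, averaged probe sets and each array left out. The count of called members was 6 under both normalizations, the offset and the probe set mean. It was 4 with no filter, with the stricter filter (Trem2 and Tyrobp then untested) and with no trend, 7 with the replicate block or letter B alone, 1 with letter A alone, and 2 to 6 with an array left out. After unpaired training it went from 0 to 1 under quantile normalization and to 4 with the replicate block, and was 0 with any array left out. After paired training it went from 2 to 0 under median centring or no intensity trend, to 7 with the replicate block, and was 0 to 2 with an array left out. Counts for training and for the interaction were 0 under all alternatives that were run. Cx3cr1 changed sign to 0.17 within letter B alone and to 0.14 without epileptogenic paired A; with an array left out it ranged from -0.95 to 0.14. The causes were not tested. Over all 18625 tested probe sets the replicate block moved the calls from 523 higher and 154 lower to 1411 and 1611, and median centring to 377 and 12. Calls higher were 594 under quantile normalization, 558 with the offset and 297 with no trend. They were 468 of 31042 with no filter, 519 of 12417 with the stricter filter and 412 of 14896 with averaged probe sets. For the counts within each training such totals are given only for the main fit and the replicate block. Signal over background limits what can be said of Cst7, Itgax and the dimmer Trem2 probe set.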
